A study of Mus musculus with 12 samples.

Results

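Processed pseudogenes are copies of messenger RNAs that were reverse transcribed and inserted back into the genome, usually without introns and without the promoter of the gene they came from. Genes with abundant messenger RNA, such as those for ribosomal proteins and glycolytic enzymes, have many of them. A recent copy can be almost identical to its parent gene, so that a short read from the parent's messenger RNA may align equally well to the copy. A read counted at a processed pseudogene is therefore not by itself evidence of transcription of that locus.

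The rows described here are the abundant processed pseudogenes of a C2C12 RNA-seq experiment. They are all rows with the biotype processed pseudogene and a mean of at least 5 FPKM (a read level per gene length and per library depth) over 6 libraries, apart from names that begin with Rpl or Rps and hold -ps, and a short list of other names. Of 27942 genes in the tables, 6313 are processed pseudogenes, 3775 of which were at 0 in all 6 libraries, and 167 reached the minimum. Of those 167, 18 were left out as Rpl-ps or Rps-ps and 8 under the other names, which leaves 141 members. Gm2981 (5.06 FPKM) and Gm10182 (5.06 FPKM) lay just above the minimum, and Gm9392 (4.79 FPKM) and AC132863.4 (4.65 FPKM) just below it. The level chose the members, so the levels below are descriptions. The difference between treatments was not itself a criterion of the level rule. The minimum is on the mean over both groups, however, so a row could reach it through its higher group alone. Gm37784, called below, had means of 4.97 FPKM in controls and 11.5 FPKM with OI, and Gm16199, also called, 6.96 and 4.00 FPKM. The listed names were picked with earlier results known, and 1 of the 8 left out was itself lower after treatment by the test used below.

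C2C12 is a line of mouse myoblasts, muscle precursor cells that form multinucleate myotubes in low serum. All cells analysed were kept in medium with 2% horse serum for 7 days, either without further treatment (control, 3 libraries) or with 25 µmol/L 4-octyl itaconate (OI, 3 libraries), a cell-permeable ester of the metabolite itaconate, to ask how OI affects myogenic differentiation. A second set of 6 samples, 3 in each group, is not analysed here. Whether the 3 libraries of a group are separate cultures is not in the labels, and the p-values below rest only on how far these libraries lie apart, a spread that could be technical. Of 15 marker genes for muscle, fibroblasts and dividing cells, 3 had a row. The muscle RNA H19 lay at 131 to 136 FPKM in controls and 24.1 to 32.1 FPKM with OI, and slow troponin C, Tnnc1, at 110 to 140 and 21.9 to 24.7 FPKM. The histone gene Hist2h3c1 lay at 1.64 FPKM in control replicate 1 and at 20.1 to 26.05 FPKM in the other 5 libraries.

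Reads per library, worked back from FPKM and gene length, were between 24441000 and 36274000. For all 141 members in all 6 libraries the value corresponded to a whole number of reads within 0.01, from 18 to 9656 reads per member and library. The members together took 0.295% to 0.334% of the reads of a library. Control replicate 1 stood apart in a few very abundant RNAs, with AY036118 at 70761 FPKM against 691 to 2450 FPKM elsewhere, Rn7s1 at 480 FPKM against 8.11 to 11.8 FPKM elsewhere and Malat1 at 1769 FPKM against 312 to 429 FPKM. Its FPKM summed over all genes was 189789, against 51797 to 56771 in the other libraries. No member lay more than 2-fold above or below all other libraries in control replicate 1. OI replicate 1 stood apart among the members themselves, as described with the ribosomal protein copies.

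The name under which these rows were grouped, processed pseudogenes besides ribosomal protein, did not hold. By sequence, 39 of the 141 members are copies of ribosomal protein messenger RNAs that carry a Gm or clone name, or in 1 case the name Rpl6l, instead of an Rpl-ps or Rps-ps name, and 6 of the 12 most abundant members belong to them. Each member's GENCODE M21 transcript was aligned with all protein-coding transcripts, and the parent was taken as the best match with an identity of 90% or more that covers 80% or more of the member. A parent was found for 139 of 141 members, from 110 distinct genes. The other classes were copies of messenger RNAs for chromatin and nucleolar proteins (12 members), glycolytic enzymes (9), RNA-binding proteins (9), translation factors (8), mitochondrial respiration and ATP synthesis (5), ubiquitin and proteasome proteins (4), chaperones and prolyl isomerases (4), the cytoskeleton (3) and glutathione transferase (1), with 45 members whose parents are on none of the lists. The classes are lists of gene names and are not complete: Cop1 (a ubiquitin ligase), Kansl2 (a chromatin regulator) and Mpc1 (a mitochondrial carrier), for example, are on none of them. AC156016.4 and Gm10060 had no parent in this search. AC156016.4 lies wholly over exonic bases of Mapk1ip1l. Gm10060 matched Nsfl1c, a cofactor of the p97 ATPase, at 90.5% identity over 94.6% of its length. That match, within both limits, came only from a more permissive search that was not restricted by strand.

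The sequence stretches below were read from GENCODE M21 transcripts on GRCm38 (mm10) and are printed 5′ to 3′ on the strand of the gene. They set members on which the results turn beside their parents and do not show every difference. Gm7993 has 53 differing bases and 7 gap bases over its whole alignment with Odc1, and its stretch holds 6 of the differing bases. Capitals mark the bases at which the copy and its parent differ within the stretch, and positions are those of the member. Gm16199, at chr6:120005998-120006057 on the plus strand, and Gm10736, at chr13:111593534-111593611 on the minus strand, had no differing base over their whole length, so that a single line stands for the copy and for the parent.
Gm16199 and Cop1: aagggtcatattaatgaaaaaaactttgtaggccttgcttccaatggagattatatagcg
Gm10736 and Rpl41: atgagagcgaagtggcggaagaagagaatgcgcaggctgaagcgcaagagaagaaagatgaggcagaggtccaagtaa
Kansl2-ps is shown at chr7:72673910-72673969 on the plus strand, where the copy's differing base turns a codon into a stop, as found by translating both in the parent's frame.
Kansl2-ps: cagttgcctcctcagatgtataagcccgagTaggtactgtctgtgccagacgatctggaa
Kansl2: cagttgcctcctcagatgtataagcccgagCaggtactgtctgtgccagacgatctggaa
Gm37784 is shown at chr3:69963314-69963373 and Gm7993 at chr5:95975125-95975184, both on the plus strand.
Gm37784: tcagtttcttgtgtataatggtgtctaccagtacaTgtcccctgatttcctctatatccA
Insig1: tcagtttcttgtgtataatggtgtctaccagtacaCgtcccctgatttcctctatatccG
Gm7993: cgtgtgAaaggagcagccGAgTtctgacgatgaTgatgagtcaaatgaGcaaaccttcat
Odc1: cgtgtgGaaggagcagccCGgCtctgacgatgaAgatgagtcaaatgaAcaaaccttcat
Gm5559, at chr5:95862068-95862127 on the plus strand, stands for the Gapdh copies, and its stretch holds the only base of the whole copy that differs.
Gm5559: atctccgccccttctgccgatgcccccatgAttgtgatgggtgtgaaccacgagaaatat
Gapdh: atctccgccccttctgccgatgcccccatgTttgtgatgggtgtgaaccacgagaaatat
Gm7846, at chr1:28580499-28580558 on the minus strand, is a copy whose parent has its own row.
Gm7846: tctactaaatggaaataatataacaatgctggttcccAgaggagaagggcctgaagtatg
Lsm5: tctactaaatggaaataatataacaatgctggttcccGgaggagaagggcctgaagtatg
Gm17828, at chr9:72293125-72293184 on the minus strand, is one of the Rpl7a copies described below and has 11 differing bases in the aligned coding sequence.
Gm17828: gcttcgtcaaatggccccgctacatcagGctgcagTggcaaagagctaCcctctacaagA
Rpl7a: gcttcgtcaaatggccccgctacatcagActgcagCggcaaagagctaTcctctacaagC

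Identity to the parent had a median of 99.2% over the 139 members with a parent, from 93.4% to 100%, and 24 members were identical to it over the aligned length. To describe how often a read of 50 bases could come from either, the share of a member's 50-base windows that occur unchanged in a coding transcript of another gene was counted. That share had a median of 74.4%, was 100% in 23 members, which include members lying over an exon of another gene, and was under 50% in 33. At the low end lay Gm6548, a copy of the elongation factor gene Eef1a1, with 12.8% of its windows shared. How the deposited values divide reads with several alignments could not be read from the labels. Of the 141 members, 140 have 1 exon, and 11 share exonic bases with another annotated gene. Introns of protein-coding genes hold 35 members, 18 of them counted on the strand of the gene. Gm15899 is not among these 18, as it lies opposite to Gm20388, but it is on the strand of its other host, Cbfa2t3. The members lie on 21 chromosomes, with 17 on chromosome 1, and 1 on the Y chromosome.

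Many of the copies still carry a readable frame. Of 138 members whose parent transcript has a complete coding sequence, 55 cover that sequence, apart from at most 3 bases, without a gap or new stop codon, and 14 of these have no differing base. Another 58 have a gap or a new stop codon, 29 of them a new stop, and 25 have neither but cover less of it, with no coding base at all in Gm44429, a copy of Ddx3x. The most abundant member, Gm9794, differs from Rpl23 at 1 base of its 423-base coding sequence, and this base makes a stop codon. Whether any of these frames is translated was not measured.

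Levels spanned from 5.06 to 447 FPKM with a median of 14.6 FPKM, and 12 members had a mean over 100 FPKM. Gm9794, the copy of the large-subunit protein gene Rpl23, had 479, 425 and 483 FPKM in control replicates 1 to 3 and 502, 399 and 391 FPKM in OI replicates 1 to 3. Its groups overlapped, and its log2 difference was -0.11 ± 0.12 (SE) with an adjusted p of 0.706 by limma. Tpt1-ps3 is identical to the whole coding sequence of Tpt1, which the lists place with the translation factors. It had 197, 195 and 205 FPKM in controls and 187, 217 and 178 FPKM with OI, so that the OI libraries lay on both sides of the controls. Gm10241, identical to the small modifier gene Sumo2, had 98.4, 121 and 46.9 FPKM in controls and 151, 112 and 138 FPKM with OI. Control replicate 3 alone was low, the groups overlapped, and the difference of 0.68 ± 0.35 (SE) did not pass (adjusted p = 0.378, limma). The other Sumo2 copy, Gm13690, was low in the same control library at 8.89 FPKM but also in OI replicate 2 at 8.51 FPKM, with 15.2 to 20.3 FPKM in the other 4.

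Copies with the same sequence did not always have the same level. Gm12671 and Gm10359, both identical to the whole coding sequence of Gapdh, had means of 169 and 72.3 FPKM over the 6 libraries. The first was 2.09 to 2.55 times the second in every library. Gm13841 and Gm8210, copies of Rpl29 that are identical to each other but not to the parent (99.4% identity), had means of 183 and 159 FPKM, a ratio of 1.11 to 1.19 per library. Gm15801 and Gm8783, identical copies of the phosphatase gene Ptp4a1, had 11.5 and 10.5 FPKM, a ratio of 1.02 to 1.15. The source of these unequal levels was not tested. Across the 141 members the level and the share of windows found in coding transcripts were weakly related (Spearman's rho 0.25, a description over members that share libraries and in part parents).

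The comparison of interest is OI against control, fitted with limma on log2(FPKM + 1) over the 1737 genes with at least 1 FPKM in at least 3 libraries, all 141 members among them. Differences are OI minus control on that log2 scale, which understates changes of low genes, and p-values are two-sided and Benjamini-Hochberg adjusted over all 1737 genes. Of the members, 4 passed at 0.05, which is 2.84%, and over all genes tested 2.76% passed. By direction 3 members rose (2.13%, against 1.15% of all genes) and 1 fell (0.709%, against 1.61%). The median difference of the members was -0.01 and that of all genes tested -0.02, and 70 of 141 members lay above 0. An unadjusted p under 0.05 was reached by 36 members (25.5%, against 17.8% of all genes). The 3 values of one group lay wholly above those of the other in 40 members (28.4%, against 23.6%), 18 lower (12.8%, against 12.5%) and 22 higher with OI (15.6%, against 11.1%). The share of members called was thus near that of the 1737 genes, most of which lie at lower levels than the members. All 4 were among the 45 members whose parents are on none of the lists. When only genes with at least 5 FPKM in at least 3 libraries were tested, 49 of 591 genes and 6 of 141 members passed. At that level the share called was smaller among the members than among all genes.

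**Figure D1:**
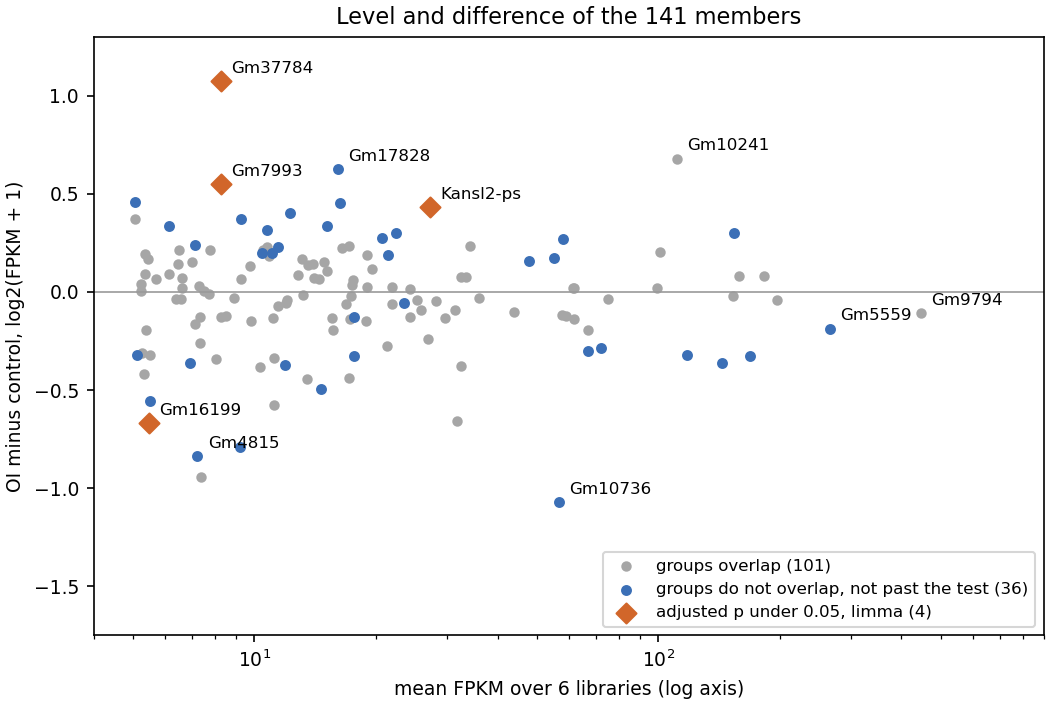
Each point is one of the 141 members, placed by its mean FPKM over the 6 libraries (log axis) and by its difference OI minus control in log2(FPKM + 1). Orange diamonds are the 4 members past the test, blue points the other 36 whose groups do not overlap, and grey points the 101 whose groups overlap; the differences lie between -1.07 and 1.07.

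The member with the smallest adjusted p was Gm16199 (ENSMUSG00000089936), a copy of part of Cop1, which encodes a ubiquitin ligase of nuclear regulators. It had 7.10, 6.48 and 7.29 FPKM in control replicates 1 to 3 and 4.11, 4.12 and 3.79 FPKM in OI replicates 1 to 3. The groups were well apart, with every OI library below every control, on 28 to 63 reads per library. Gm16199 fell to 0.575 of the control mean, by 0.67 ± 0.08 (SE) on the log2 scale (adjusted p = 0.0129, limma). Its 288 bases lie at chr6:120005998-120006285, on the opposite strand to an intron of Wnk1, and all of its 50-base windows occur in Cop1. The adjusted p rose to 0.0528 when control replicate 1 was left out, to 0.0618 for OI replicate 2 and to 0.0568 for OI replicate 3, which ended the call each time.

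Gm7993 (ENSMUSG00000107092) is a copy of Odc1, the gene of ornithine decarboxylase, which starts polyamine synthesis. It had 5.91, 6.42 and 7.25 FPKM in controls and 10.5, 9.58 and 9.93 FPKM with OI. All 3 OI libraries were higher than all 3 controls, and the mean rose 1.53-fold, from 6.53 ± 0.68 to 9.99 ± 0.44 FPKM (SD, n = 3 each), with an adjusted p of 0.0365 by limma. This copy at chr5:95974240-95975623 is more divergent than most, with 95.7% identity and 32.9% of its windows shared, and it holds a new stop codon. The call was kept without control replicate 3 and lost without any one of the other 5 libraries (adjusted p 0.0910 to 0.141, limma).

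Kansl2-ps (ENSMUSG00000097530) is a copy of the whole coding sequence of Kansl2, which encodes a subunit of the NSL histone acetyltransferase complex. It had 21.3, 23.9 and 23.9 FPKM in controls and 32.7, 30.6 and 31.0 FPKM with OI, on 761 to 1621 reads per library. The OI libraries were all higher, and the mean rose 1.36-fold, a difference of 0.43 ± 0.08 (SE) with an adjusted p of 0.0414 by limma. It lies at chr7:72672818-72674278, outside other genes, and has 2 differing bases, with 92.9% of its windows shared. Leaving out any one library ended the call, with adjusted p-values from 0.0922 to 0.146, as did a variance model without a trend (0.0691).

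Gm37784 (ENSMUSG00000102525), a copy of part of Insig1, the gene of an endoplasmic reticulum protein that holds back sterol synthesis, had 3.90, 4.85 and 6.17 FPKM in controls and 9.72, 11.1 and 13.8 FPKM with OI. It rose 2.32-fold without overlap between groups (difference 1.07 ± 0.18, SE, adjusted p = 0.0372 by limma), on 18 to 76 reads per library at chr3:69963282-69963470. Its identity to Insig1 was 98.9%, with 47.1% of its windows shared. The call was kept without control replicate 3 and lost without any one of the other 5 libraries (adjusted p 0.0671 to 0.141, limma). With no minimum on FPKM, 10948 genes were tested and none of the 4 members passed. In that fit 34 members had an unadjusted p under 0.05, a share that was not counted for all genes.

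**Figure D2:**
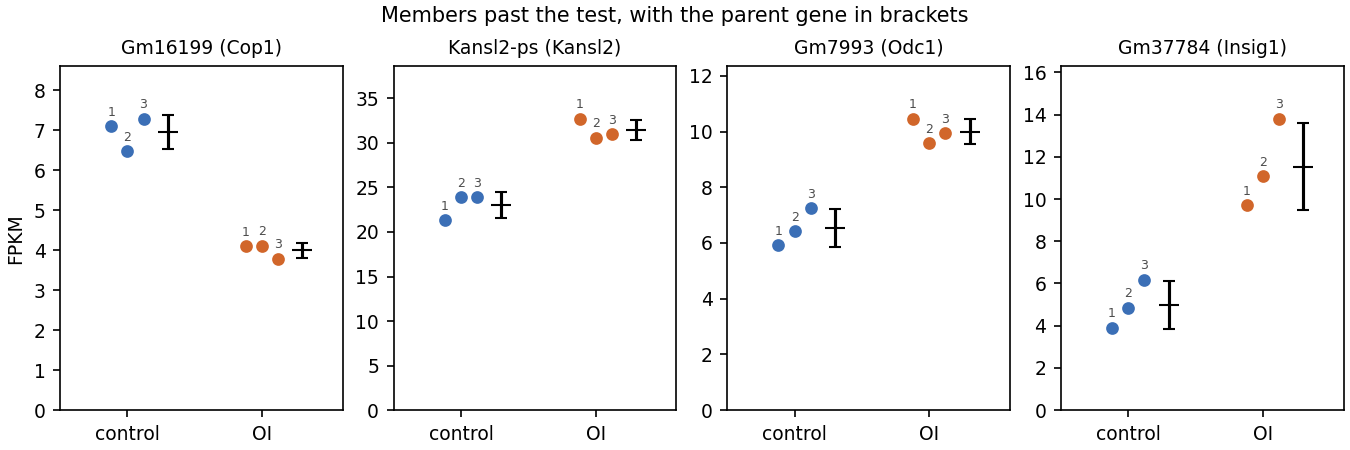
FPKM of the 4 members past the test in each library, with the parent gene in brackets; points are libraries, numbered by replicate, and the bar beside them is the mean ± SD of 3. The 3 OI libraries lie below the controls for Gm16199 and above them for Kansl2-ps, Gm7993 and Gm37784.

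The 9 copies of glycolytic genes included the largest family of copies from 1 parent. Gapdh encodes glyceraldehyde-3-phosphate dehydrogenase, a glycolytic enzyme often used as a reference gene in muscle cells, and it has 6 members. All 6 had every OI library below every control, as had 12.5% of all genes tested, and none passed the test, with adjusted p-values from 0.104 to 0.259 (limma). All 6 had an unadjusted p under 0.05, as had 17.8% of all genes tested in either direction. Their summed level was 912, 894 and 944 FPKM in control replicates 1 to 3 and 797, 755 and 712 FPKM in OI replicates 1 to 3. The sum was thus lower in each OI library than in any control. As they share a parent and nearly all of their sequence, the 6 rows are not 6 independent observations. Gapdh itself was not analysed here.

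Gm5559, the most abundant of them, had 292, 272 and 285 FPKM in controls and 241, 266 and 239 FPKM with OI. The highest OI library lay just under the lowest control, and the difference was -0.19 ± 0.07 (SE). Gm12537 had the largest difference, -0.36 ± 0.11 (SE), from 154, 156 and 174 FPKM to 146, 114 and 118 FPKM. Gm10359 had the smallest adjusted p (0.104), with 80.8, 80.4 and 77.4 FPKM in controls and 64.1, 69.0 and 62.0 FPKM with OI, and it passed when only genes with at least 5 FPKM were tested (adjusted p = 0.0444, limma). Under quantile normalization the median difference of the 6 went from -0.31 to -0.12, and that of Gm5559 to -0.05. Gapdh-ps15 lies on the Y chromosome and had 74.1, 72.4 and 75.5 FPKM in controls and 64.5, 59.6 and 56.1 FPKM with OI. Of the 1558 rows on that chromosome, 1549 were at 0 in all libraries and 5 had a mean of at least 1 FPKM, and the highest of them besides Gapdh-ps15 had 7.06 FPKM.

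The other 3 copies of glycolytic genes had overlapping groups. Tpi-rs11, a copy of the triosephosphate isomerase gene Tpi1, had 14.1, 10.99 and 12.7 FPKM in controls and 11.3, 9.16 and 8.79 FPKM with OI. Gm6560, a copy of the pyruvate kinase gene Pkm, had 17.6, 17.7 and 16.5 FPKM in controls and 16.9, 19.6 and 16.7 FPKM with OI. Gm5855, a copy of the enolase gene Eno1b, had 4.83, 4.42 and 6.11 FPKM in controls and 5.61, 6.02 and 5.85 FPKM with OI. In these last copies, from Pkm and Eno1b, the OI and control libraries were interleaved.

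**Figure D3:**
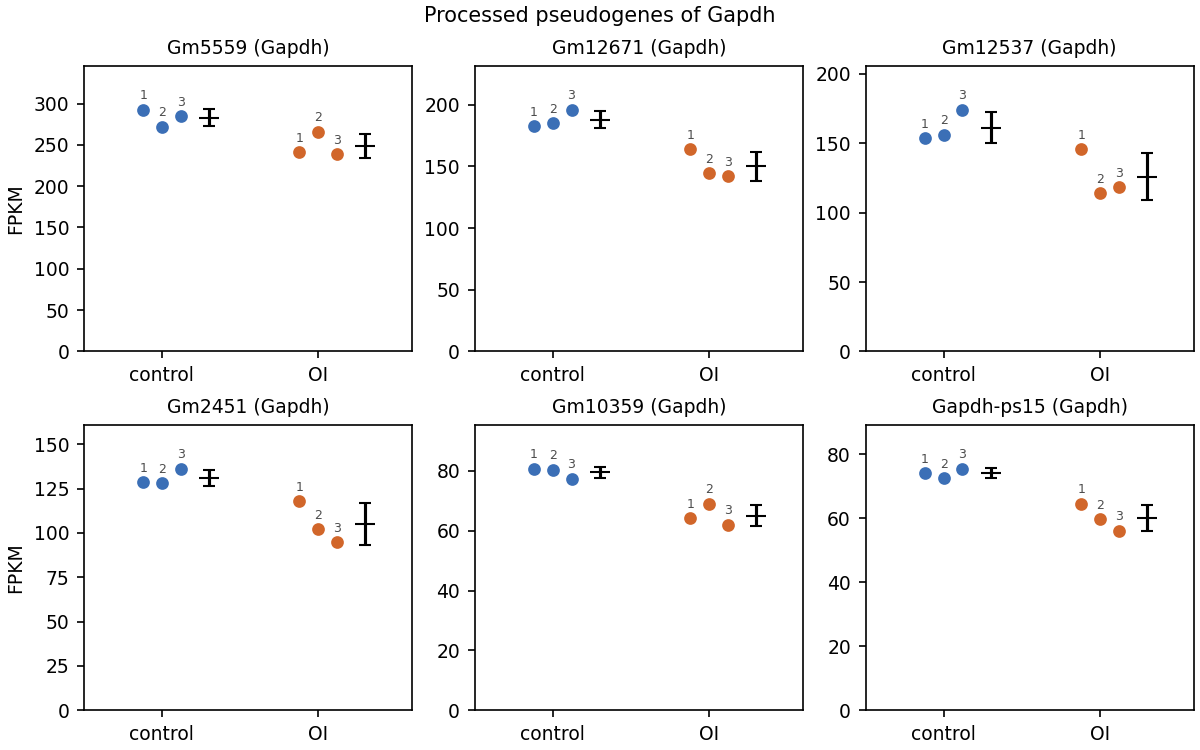
FPKM of the 6 Gapdh copies in each library, points numbered by replicate, with the mean ± SD of 3 beside them. In each panel the 3 OI libraries lie below the 3 controls, as from 912, 894 and 944 to 797, 755 and 712 FPKM for their sum; no panel passed the test.

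The 39 ribosomal protein copies had a median difference of -0.03, with 15 above 0, and none passed the test (limma, smallest adjusted p 0.132). An unadjusted p under 0.05 was found in 5 of them (12.8%, against 17.8% of all genes tested). OI replicate 1 was often the highest library of the ribosomal copies, though not of them alone. It was first of the 6 libraries in 22 of the 39 (56.4%), in 8 of the 18 Rpl-ps and Rps-ps rows left out by name (44.4%), in 51 of all 141 members (36.2%) and in 16.9% of all genes tested. The share was as high in the chromatin and nucleolar copies (7 of 12, 58.3%), and it was 27.4% in the 252 tested processed pseudogenes that are not members. The ratio of OI replicate 1 to the mean of the other OI libraries had a median of 1.32 for the ribosomal copies and 1.01 for all genes tested. The coefficient of variation within OI had a median of 20.3% for the ribosomal copies, where counting error alone gives 5.46%, against 8.53% within control. Without OI replicate 1 their median difference went from -0.03 to -0.21, with 8 of 39 above 0, and none passed (smallest adjusted p 0.0676, limma). For all members the median went from -0.01 to -0.07. Why this library was higher was not tested.

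Gm45855, a copy of the small-subunit gene Rps2, shows the pattern, with 29.6, 29.9 and 31.9 FPKM in controls and 41.1, 20.7 and 24.8 FPKM with OI. OI replicate 1 was above every control and the other OI libraries below. Gm5586, a copy of Rps3a1, had 69.6, 67.3 and 76.7 FPKM in controls and 80.8, 52.6 and 56.0 FPKM with OI, in the same order. Gm13370, a copy of Rpl21, did not show it, with 163, 150 and 150 FPKM in controls and 160, 150 and 147 FPKM with OI. Copies of 1 parent could lie on both sides of 0, as in the Rpl7a family of 5, whose protein is part of the large subunit. Gm8226 had 122, 137 and 154 FPKM in controls and 185, 154 and 170 FPKM with OI, a difference of 0.30 ± 0.11 (SE, adjusted p = 0.245, limma). Its groups were barely apart, at 154.38 FPKM in control replicate 3 and 154.42 FPKM in OI replicate 2. Gm17828, the second Rpl7a copy without overlap, had 10.0, 12.01 and 15.5 FPKM in controls and 16.9, 21.1 and 20.9 FPKM with OI (0.62 ± 0.17, SE, adjusted p = 0.132). Among the other Rpl7a copies Gm5619 lay at -0.13, Gm6286 at 0.03 and AC154477.1 at 0.08, all with overlapping groups. Of the 15 parents with at least 2 members, 6 had copies on both sides of 0, 5 had all copies above it and 4 all below it.

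**Figure D4:**
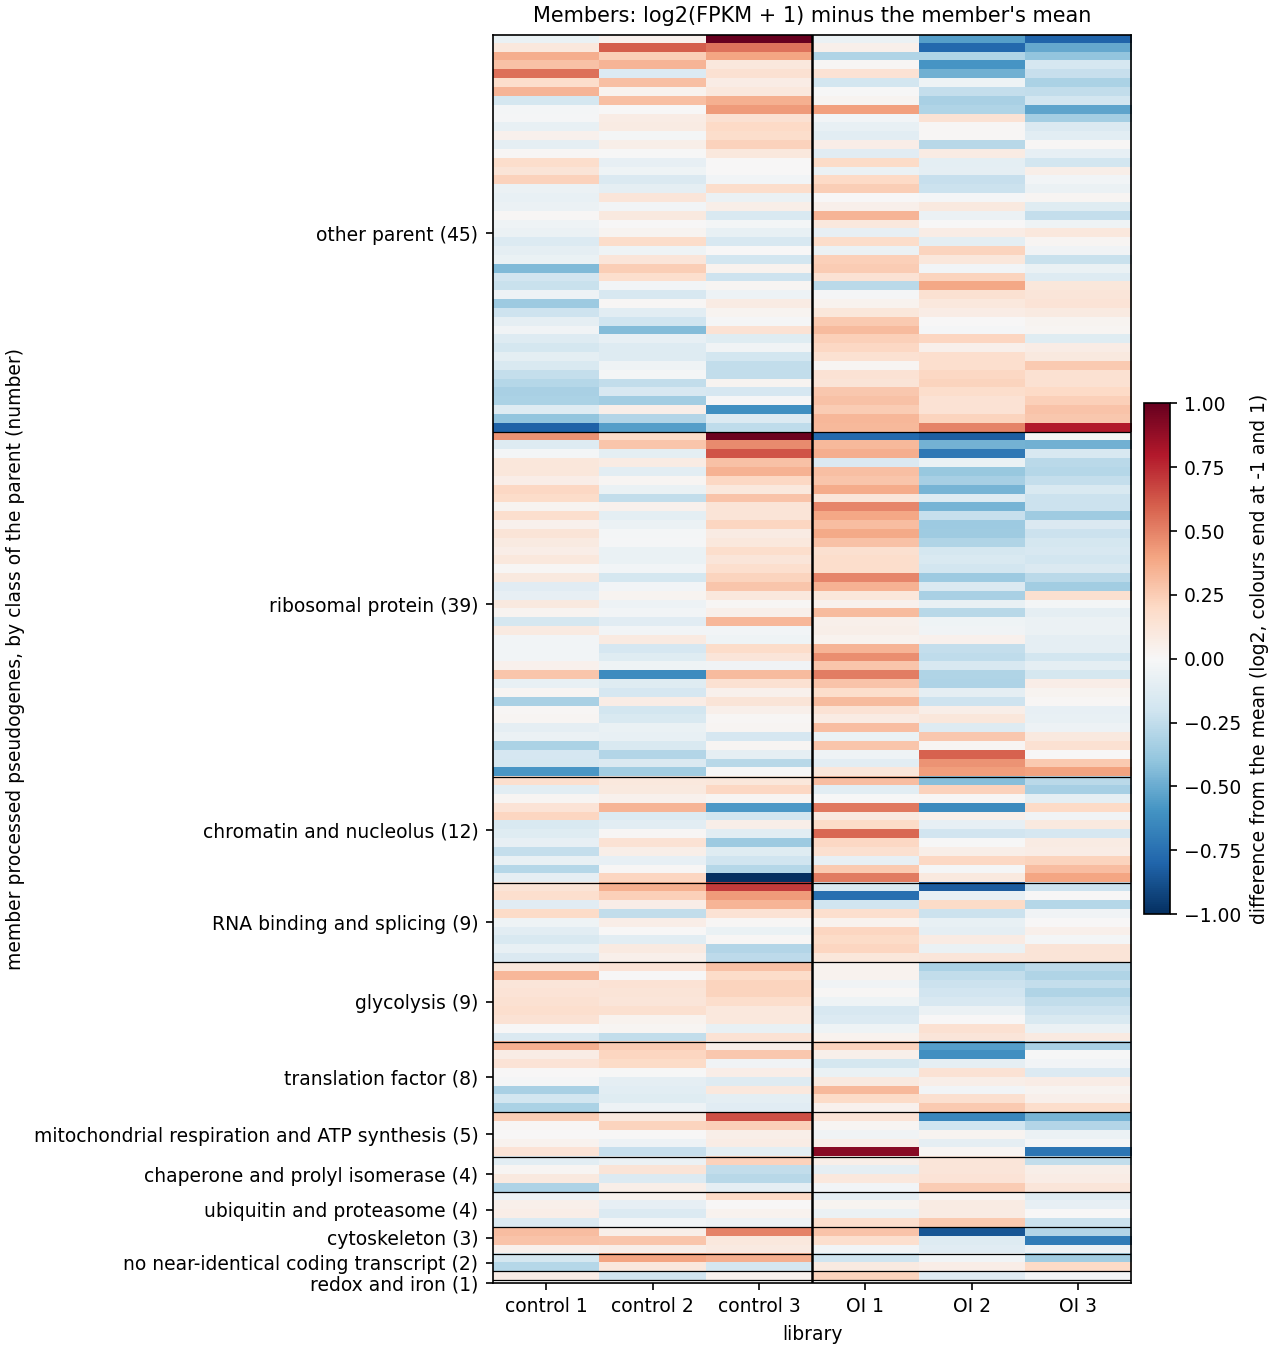
Each row is 1 of the 141 members, grouped by the class of its parent and sorted by difference within the class, and each column is a library; colour is log2(FPKM + 1) minus the member's mean over the 6 libraries. The OI replicate 1 column is the highest in 22 of the 39 ribosomal copies, and the glycolysis block is red in the controls for the 6 Gapdh copies.

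In 4 cases the parent has a row of its own, so that 5 copies can be set beside it in the same libraries. Gm10736 is a copy of the 78-base coding sequence of Rpl41, the smallest ribosomal protein, and is identical to it. It had 70.3, 58.4 and 102 FPKM in controls and 29.5, 28.6 and 50.9 FPKM with OI, every OI library being lower, with a difference of -1.07 ± 0.29 (SE) that did not pass (adjusted p = 0.132, limma). Rpl41 had 258, 225 and 262 FPKM in controls and 271, 194 and 206 FPKM with OI, with overlapping groups and a difference of -0.16 ± 0.14 (SE, adjusted p = 0.619). The copy stood at 0.259 to 0.389 of its parent in controls and at 0.109 to 0.247 with OI. The groups of this ratio did not overlap, but an exact permutation test with 3 against 3 libraries cannot go below p = 0.1, the value found (two-sided, 0.167 adjusted over the 5 pairs).

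Lsm5 encodes a protein of the Lsm rings that bind U6 RNA and take part in messenger RNA decay. The parent had 3.87, 5.25 and 3.07 FPKM in controls and 6.68, 5.95 and 6.69 FPKM with OI, so that the OI libraries were higher. Its copy Gm7846 had 9.56, 11.4 and 14.7 FPKM in controls and 7.73, 4.43 and 7.39 FPKM with OI, and its copy Gm10074 had 6.08, 6.45 and 7.50 FPKM in controls and 2.75, 4.98 and 5.32 FPKM with OI. Both copies were lower in every OI library than in any control, opposite to the parent. None of the 3 differences passed the test by limma, with 0.58 ± 0.16 (SE, adjusted p = 0.146) for Lsm5, -0.79 ± 0.23 (0.155) for Gm7846 and -0.55 ± 0.21 (0.255) for Gm10074. The ratio of Gm7846 to Lsm5 was 2.16 to 4.79 in controls and 0.744 to 1.16 with OI, and that of Gm10074 was 1.23 to 2.44 and 0.412 to 0.837, each with an exact two-sided permutation p of 0.1, the smallest possible, and 0.167 after adjustment over the 5 pairs. The counts behind the copies were low, with 22 to 121 reads per library.

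In the remaining pairs copy and parent both lay below 0, at -0.32 and -0.10 for Gm12254 and Rpl24 and at -0.06 and -0.28 for Gm5900 and Lamtor3, and none of these passed the test. Gm12254 stood at 0.0174 to 0.0253 of Rpl24, a large-subunit gene, with 5.56, 5.43 and 6.44 FPKM in controls and 4.49, 4.80 and 4.05 FPKM with OI. Every OI library was lower, and the exact permutation p for the ratio was 0.2 (two-sided, n = 3 each, 0.25 adjusted). Gm5900 stood at 0.880 to 1.52 of Lamtor3, which encodes a scaffold of the lysosomal Ragulator complex, with overlapping ratios (exact permutation p = 0.5). The level of a copy relative to its parent thus ranged widely over these pairs.

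**Figure D5:**
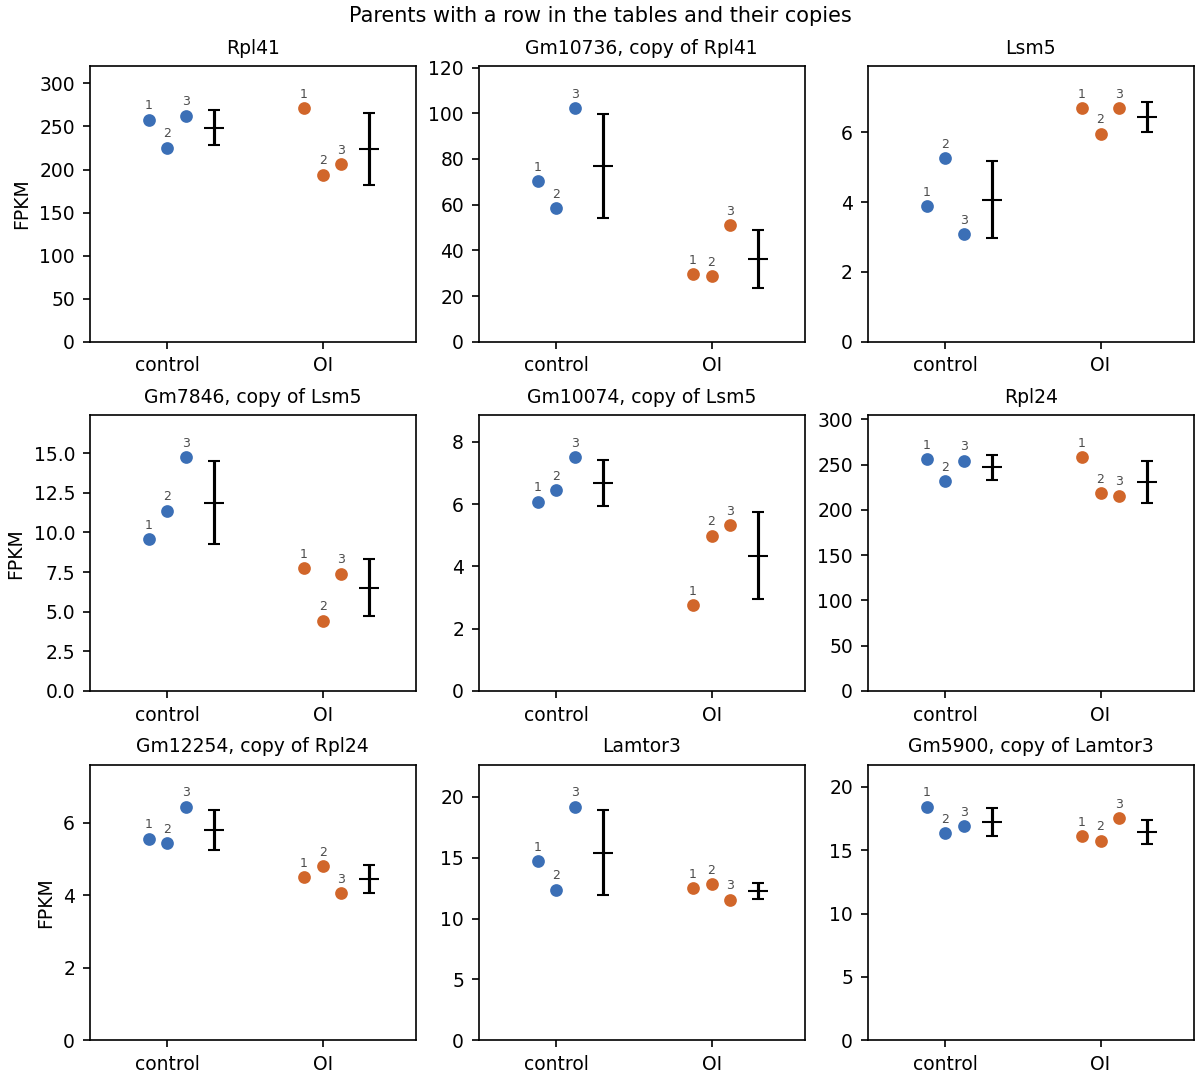
FPKM in each library of the 4 parents that have a row and of their 5 copies, points numbered by replicate, with the mean ± SD of 3 beside them. Lsm5 lies higher with OI (5.95 to 6.69 FPKM) than in controls (3.07 to 5.25 FPKM), while its copies Gm7846 and Gm10074 lie lower.

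In the listed classes of RNA-binding, chromatin and translation genes, which do not hold Kansl2, no member passed the test (limma). An unadjusted p under 0.05 was reached by 3 of 9, 1 of 12 and 3 of 8 members (33.3%, 8.33% and 37.5%, against 17.8% of all genes tested). The 3 copies of Npm1, which encodes the nucleolar protein nucleophosmin, lay at 0.13 to 0.19, all above 0 with overlapping groups, and the most abundant, Gm9118, had 12.05, 12.5 and 14.1 FPKM in controls and 15.6, 12.7 and 14.5 FPKM with OI. Among translation factors, Eif4a-ps4, a copy of the helicase gene Eif4a1, had 50.8, 53.0 and 54.1 FPKM in controls and 66.2, 64.7 and 59.9 FPKM with OI. Its OI libraries were all higher, and its difference of 0.27 ± 0.07 (SE, adjusted p = 0.124, limma) passed after quantile normalization (0.04998). The Eef1a1 copies Gm6548 and Gm5869 lay at 0.32 and 0.22, with groups apart in the first only. Gm21596, a copy of the chromatin gene Hmgb1, had close values in all libraries, 23.8, 24.3 and 23.9 FPKM in controls and 23.5, 23.7 and 22.1 FPKM with OI.

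The 3 copies of Dnajb6, a co-chaperone of Hsp70, lay at 0.07 to 0.23, and the most abundant, Gm6395, had 8.41, 11.1 and 9.94 FPKM in controls and 10.4, 12.9 and 11.7 FPKM with OI, in overlapping groups. Of the copies of respiration genes, Gm16418, from the respiratory complex III gene Uqcr11, had 36.1, 32.4 and 48.0 FPKM in controls and 33.3, 18.9 and 21.6 FPKM with OI, and only OI replicate 1 reached into the control range. Its difference of -0.66 ± 0.24 (SE) had an adjusted p of 0.239 (limma). Gm3375, from the proteasome subunit gene Psmb5, had 63.9, 58.4 and 61.9 FPKM in controls and 63.2, 65.6 and 58.4 FPKM with OI, with no separation of the groups. AC154767.1, a copy of the tubulin gene Tuba1b, had 18.1, 18.4 and 18.8 FPKM in controls and 17.3, 16.1 and 17.0 FPKM with OI, groups that did not overlap at a difference of -0.13 ± 0.06 (SE, adjusted p = 0.372). It shares 45 exonic bases with Il31ra. Gm7730, a copy of the nucleoside diphosphate kinase gene Nme2, had 29.7, 22.6 and 24.6 FPKM in controls and 28.9, 21.2 and 24.5 FPKM with OI, and Gm6397, a copy of the RNA-binding gene Hnrnpa3, 18.03, 19.6 and 18.6 FPKM and 22.8, 18.3 and 20.3 FPKM. In both the groups overlapped.

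Among members with other parents, Rab11b-ps2, a copy of the gene for a GTPase of recycling endosomes, had 12.7, 12.4 and 15.9 FPKM in controls and 19.9, 17.9 and 19.1 FPKM with OI. The OI libraries were higher, with a difference of 0.45 ± 0.11 (SE) and an adjusted p of 0.110 (limma). Gm2981, a copy of the apoptosis inhibitor gene Api5, had 4.42, 5.19 and 2.88 FPKM in controls and 6.10, 5.56 and 6.23 FPKM with OI (0.46 ± 0.18, SE, adjusted p = 0.259). Gm4815, a copy of the actin-binding calponin gene Cnn3, had 7.33, 10.8 and 10.3 FPKM in controls and 7.02, 3.49 and 4.43 FPKM with OI, a difference of -0.84 ± 0.24 (SE, adjusted p = 0.155). Nudc-ps1, a copy of the nuclear movement gene Nudc, had 19.2, 18.8 and 18.1 FPKM in controls and 23.1, 23.3 and 22.1 FPKM with OI. It passed only when genes under 5 FPKM were left out (adjusted p = 0.0395, against 0.102, limma).

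A few members, chosen after their values were seen, varied widely between libraries of a group. Gm44126, a copy identical to part of Uxs1, the gene of UDP-glucuronate decarboxylase, had 18.7 FPKM in control replicate 3 and 3.18 to 6.50 FPKM in the other 5, and its difference of -0.94 ± 0.43 (SE) had an adjusted p of 0.322 (limma). Gm8292, a copy of Rps24, had 13.2 FPKM in control replicate 2 and 25.7 and 26.5 FPKM in the other controls, and 30.5, 16.9 and 18.6 FPKM with OI, so that it varied as much among the OI libraries. Gm2962, a copy of the respiratory complex gene Uqcrb, had 17.97 FPKM in OI replicate 1 and 5.10 to 10.1 FPKM in the other 5. No member of these 3 had groups apart.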

How the data were processed

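Total RNA of the 6 C2C12 libraries was prepared with a TruSeq RNA kit, per the labels' protocols. The authors deposited 1 table of FPKM per gene and library; per the submitters' processing notes, cutadapt 2.7, HISAT2 2.1.0 and StringTie 1.3.3b were used with mm10. The sources used here do not give the strand setting or the handling of reads with several alignments. 1 row with a broken annotation was left out. The tables hold only some mouse genes, so most parent genes are not analysed here.

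Members were matched to parents with megablast (BLAST 2.17.0, E-value at most 1e-10, plus strand, excluding genes that share exonic bases with the member, a rule set after seeing the matches). Differences of log2(FPKM + 1) were fitted in R 4.3.3 (limma 3.58.1, intensity trend), without a replicate block, for genes with at least 1 FPKM in at least 3 libraries, tested on simulated data. Reads were recovered from FPKM and length, and came out whole (within 0.01) for 99.97% to 100% of genes with 1 exon. Ratios were tested by exact permutation on log2(FPKM + 1) of the copy minus that of the parent, while the ratios printed are of plain FPKM. Alternatives covered pseudocount, filter, scaling, variance model, block, read-based voom and leaving out each library.

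Named members were drawn from those past the test, the 12 most abundant and those at the level minimum. Also used were the 5 highest and 5 lowest differences among members with groups apart, and the most abundant copy of each parent with several. Gm2451, Gm3362 and Gm6136 met these criteria, but their values are not printed above. Others were named after their values were seen. The members and lists were chosen with earlier results of these data known.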

Additional observations from a re-analysis of the deposited data

How the results depend on the processing

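The 48 genes and 4 members past the limma test depended on the settings. With no minimum on FPKM, 14 genes and 0 members passed, while 34 members had an unadjusted p under 0.05 and voom on recovered reads called 2. With voom 62 of 3002 genes passed, and of the 4 members Gm7993 and Kansl2-ps remained, while Gm16199 (adjusted p = 0.0807) and Gm37784 (0.0763) did not. Leaving out each library in turn gave 15 to 27 genes and 0 to 3 members, with 22 to 53 members at an unadjusted p under 0.05. In the alternative settings the share of all genes at an unadjusted p under 0.05 was not counted, so these member counts have no background. No member passed when the library left out was control replicate 1 or either of OI replicates 2 and 3. Without control replicate 2 or OI replicate 1, 1 member, Gm16199, passed. The member median moved between -0.07 and 0.03 over all settings, within the spread between libraries. Of the 64 alternative values of the 4 called members, 35 kept the call and 29 lost it. Among the other members whose groups do not overlap the call was gained by Gm10359 and Nudc-ps1 (filter at 5 FPKM), Eif4a-ps4 (quantile normalization) and Gm10736 (block). Scaling by median of ratios or by quantiles kept all 4 called members. Depth limits members with few reads, such as Gm37784 with 18 to 76 per library.

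With the replicate number as a block, 17 genes and 2 members passed, Gm37784 and Gm10736 (adjusted p = 0.0249), of which 1 is among the 4. The labels give no shared culture or day for a number. Deviations of the genes tested from their group means correlated at 0.05, 0.14 and -0.08 between same-numbered libraries. These values cannot show whether such libraries share a culture or day.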
